A study of Bos taurus with 9 samples.

Results

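The genes described here are 10 members of the MHC class I antigen presentation pathway: *B2M*, *TAP1*, *TAP2*, *TAPBP*, *NLRC5*, *PSMB8*, *PSMB9*, *PSMB10*, *ERAP1* and *CALR*. The members were picked by symbol and not by their values, though earlier results of these data were known. They are 10 of the 21512 genes in the table, and all 10 symbols are also in the RefSeq annotation of the bovine assembly ARS-UCD2.0. RNA was sequenced from single bovine blastocysts on day 8 after *in vitro* fertilization, 5 WT and 4 *TEAD4* KO, with 1 library for each embryo. TEAD4 is a transcription factor that acts with co-activators of Hippo signalling, and the study asked which transcripts its loss alters in the blastocyst. By the study's methods, WT embryos came from oocytes injected with *Cas9* mRNA alone, and KO embryos from oocytes injected with *Cas9* mRNA and a single guide RNA against *TEAD4* that carried frame-disrupting alleles only. The indels arose separately in each embryo, so the KO embryos are not copies of 1 allele. All embryos shared semen from a single stud bull, whereas oocytes came from ovaries collected at slaughterhouses, so maternal MHC alleles need not be the same in any pair of embryos. Each library holds inner cell mass (ICM) and trophectoderm (TE) together. The embryos are called by the column names of the table, WT_1 to WT_5 for WT and TE_1 to TE_4 for *TEAD4* KO, where TE in a column name does not stand for trophectoderm.

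Class I molecules display peptides from inside the cell at its surface, where T cells can read them. Peptides are made by the proteasome, carried into the endoplasmic reticulum by the transporter TAP, trimmed there, and loaded on a heavy chain that is held by β2-microglobulin, the shared light chain. Interferons raise most of these genes, among them the 3 catalytic subunits that turn the standard proteasome into the immunoproteasome, and NLRC5 is the transactivator of the class I genes. Class I expression is kept low in much of the early embryo and placenta, and the embryo carries paternal alleles that are foreign to the dam.

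Values are in TPM, transcript abundances that sum to the same total in every library and are corrected for transcript length, so that levels of different genes can be compared. TPM does not keep the number of reads, so the reads behind a single value are not known, and the study gives its read depth as a range over all libraries and not for each column. The libraries listed between 14776 and 16678 genes above 0, and the genotypes differed in this. WT_2 to WT_5 listed from 15933 to 16678 genes, WT_1 listed 14807, and the KO embryos from 14776 to 15375. *TEAD4* itself, which still makes a transcript when its reading frame is disrupted, ranged from 18.0 to 54.3 TPM in WT and from 12.5 to 42.8 TPM in KO embryos, with overlap. Markers of the trophectoderm, mostly *KRT8* and *KRT18*, summed to 4013 to 17916 TPM in WT and 6585 to 12378 TPM in KO embryos. Those of the epiblast, mostly *POU5F1*, summed to 777 to 2045 TPM in WT and 1358 to 2166 TPM in KO. Those of the hypoblast, mostly *GATA6*, summed to 81.6 to 145 TPM in WT and 43.6 to 151 TPM in KO. By gene, *SOX2* and *NANOG* were lower and *POU5F1* was higher in KO, and all 4 hypoblast markers were lower, with 0 called by limma. Of the leukocyte markers, *PTPRC*, which encodes the pan-leukocyte protein CD45, was listed at 0 in all 9 libraries, and the sum of the 6 markers ranged from 4.30 to 13.2 TPM in WT and from 6.26 to 11.0 TPM in KO embryos. Markers of cumulus and granulosa cells summed to 77.0 to 266 TPM in WT and up to 128 TPM in KO embryos. The lowest KO sum was 9.002 TPM. In every WT embryo most of this sum was 1 gene, *CYP11A1*, and the markers tested did not all go the same way in KO.

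The pathway was present at very unequal levels along its length. The light chain gene *B2M* had a median of 703 TPM over the 9 embryos and the chaperone gene *CALR* 564 TPM. The other members were far lower. *PSMB9* had a median of 27.0 TPM, *TAP1* 17.2 TPM, *TAP2* 9.27 TPM, *PSMB10* 4.14 TPM and *ERAP1* 2.85 TPM. *TAPBP* at 1.40 TPM, *PSMB8* at 0.837 TPM and *NLRC5* at 0.0679 TPM were the lowest. The step from *CALR* to *PSMB9* held in 9 of 9 embryos, as did that from *TAP1* to *TAP2*. *B2M* was above *CALR* in 7 of 9 embryos. *PSMB9* was above *TAP1*, *TAP2* above *PSMB10* and *PSMB8* above *NLRC5* in 8 of 9 embryos each. The steps between neighbours among *PSMB10*, *ERAP1*, *TAPBP* and *PSMB8* were not resolved. *PSMB10* was above *ERAP1* in 5 embryos, *ERAP1* above *TAPBP* in 6, and *TAPBP* above *PSMB8* in 4 of the 9. *PSMB10* was, however, above *PSMB8* in every embryo.

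**Figure D1:**
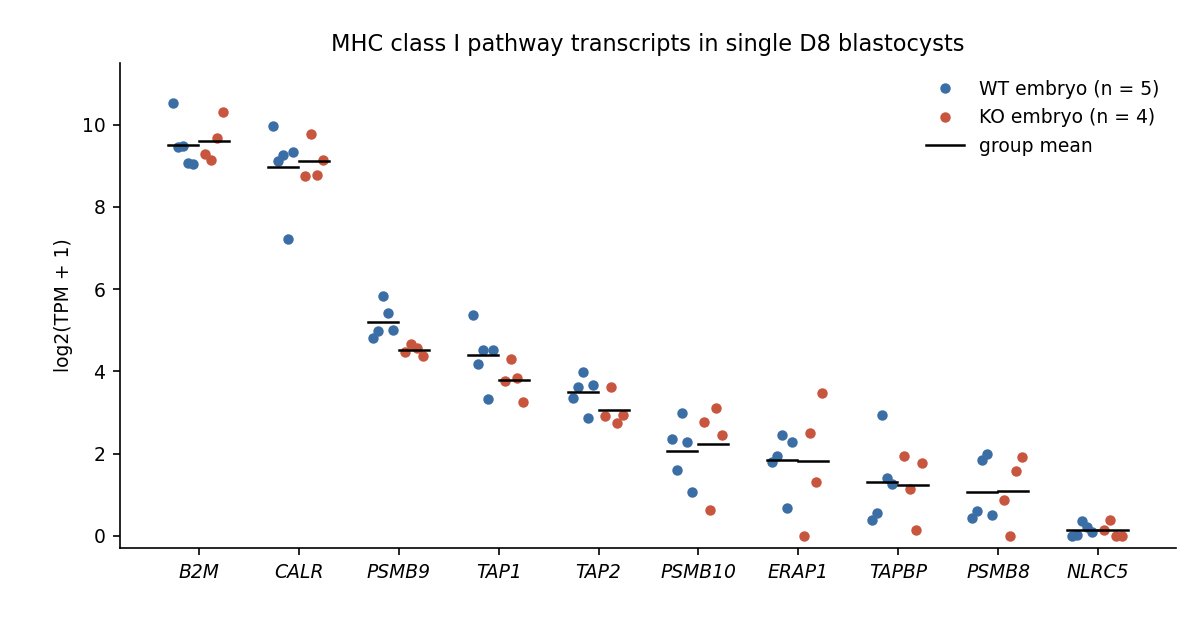
Level of each of the 10 genes in each blastocyst, on a vertical axis of log2(TPM + 1), with 1 point per embryo, 5 WT and 4 *TEAD4* KO, and a short line at the mean of each group on that scale. *B2M* and *CALR* stand far above the other genes, *NLRC5* lies at the bottom, and *PSMB9* is the gene whose WT and KO points do not overlap.

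No member passed the test between KO and WT embryos. In the limma fit, which was run on log2(TPM + 1) over all 14599 genes with a median above 0.1 TPM, 0 of the 9 members tested were called, which took an adjusted p-value below 0.05 and a log2 fold change past 1 in either direction, and 1, *PSMB9*, had an unadjusted p-value under 0.05. Over all genes tested, 3 were called, or 0.0205%. Of the 9 members, 5 were lower and 4 higher in KO, with a median log2 fold change of −0.01, beside −0.05 over all genes, of which 55.8% were lower in KO. For 6 of the 9 members the log2 fold change lay within 0.2 of 0. That count depends on the pseudocount: with 0.1 TPM in place of 1, *ERAP1* was at −0.59 and *PSMB8* at −0.26. A missing call does not show equal levels: the 95% confidence intervals of the differences reached beyond 1 log2 unit on one side or the other for 7 of the 9 members, the exceptions being *B2M* and *PSMB8*, and that of *PSMB8* ended just short of it.

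**Figure D2:**
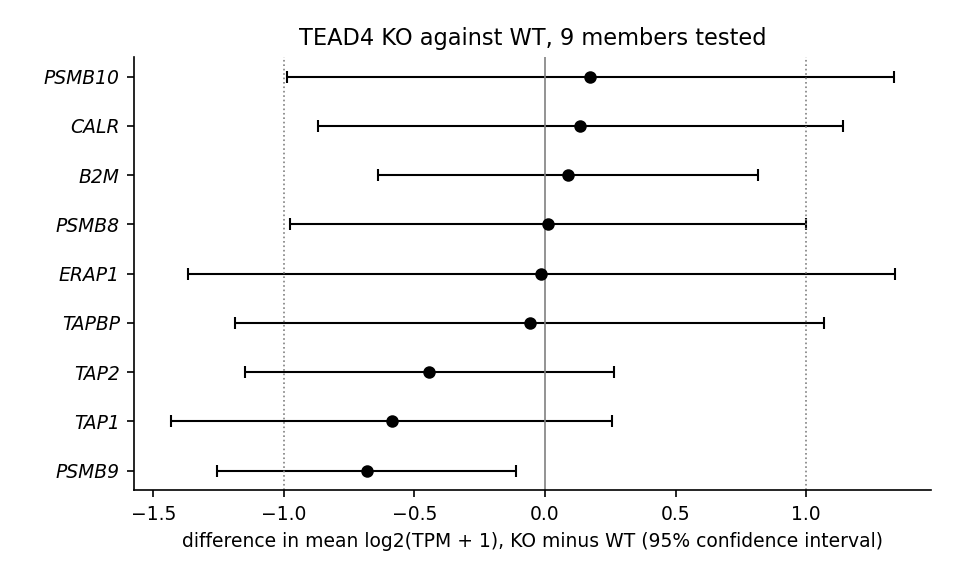
Difference between KO and WT in mean log2(TPM + 1) for the 9 genes tested, with 95% confidence intervals from limma, where dotted lines mark an absolute log2 fold change of 1. The interval of *PSMB9*, from −1.26 to −0.11, lies below 0, and those of the other 8 genes include 0.

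*PSMB9*, the inducible subunit that takes the place of PSMB6 in the immunoproteasome, was lower in KO embryos. Its level was 27.0, 30.4, 56.1, 41.5 and 31.1 TPM in WT_1 to WT_5, and 21.1, 24.4, 22.8 and 19.8 TPM in TE_1 to TE_4. The KO values all lay under the lowest WT value, and the gap was narrow, from 24.4 TPM in TE_2 to 27.0 TPM in WT_1. The mean was 37.2 ± 11.9 TPM in WT (SD, n = 5) and 22.03 ± 1.99 TPM in KO (SD, n = 4), so the KO mean was 0.592 of the WT mean. The log2 fold change was −0.68 (SE 0.26), with an exact two-sided permutation p-value of 0.0159, the smallest that 5 against 4 embryos allow. After adjustment over all genes in limma the p-value was 0.764. Among all genes tested, 1.23% had every KO embryo below every WT embryo, and 1 of the 9 members did, a count too small to be read as a result about the members. A further measure of the background is that 3.83% of all genes tested were lower in KO with an unadjusted p-value under 0.05. The 4 KO embryos differed little among themselves, with a coefficient of variation of 9.03%, against 31.9% in WT.

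The WT level of *PSMB9* rested partly on WT_3 and WT_4, its highest embryos. Some epiblast and interferon-related genes were also highest in these embryos and others were not. *SOX2* was highest there, at 68.2 and 90.4 TPM. Of the other genes in the epiblast list, *NANOG* was 53.4 and 262 TPM, with 90.2 TPM in WT_5, and *POU5F1* was highest in TE_2, at 2142 TPM. By the paper, POU5F1 and CDX2 do not exclude each other in bovine embryos as they do in mice, so *POU5F1* need not mark the epiblast alone. *MX1*, an antiviral GTPase gene, was highest in WT_3 and WT_4, at 5.65 and 5.56 TPM. So was *IRF1*, a transcription factor induced by interferon, at 25.6 and 17.8 TPM. *USP18* and *IRF9*, both induced by interferon, were highest in TE_3. Without WT_3 the log2 fold change of *PSMB9* was −0.53, and without WT_4 it was −0.63. *GATA4*, a hypoblast marker, also had every KO embryo below every WT embryo, as did 1.23% of all genes tested. Its mean was 1.46 TPM in WT and 0.640 TPM in KO (adjusted p = 0.684 in limma). *CYP11A1*, a steroidogenic gene of granulosa cells, had a mean of 129 TPM over the WT and 33.8 TPM over the KO embryos, with overlap. Of the 6 cumulus and granulosa markers tested, 4 were lower and 2 higher in KO, and the mean of *FSHR*, the receptor gene for follicle-stimulating hormone, was 17.5 TPM in WT and 17.1 TPM in KO. The part of any of these in the *PSMB9* values was not tested. In a whole blastocyst, fewer cells of a type and less RNA per cell cannot be told apart.

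The values of the other immunoproteasome subunits overlapped between the genotypes. *PSMB8*, the inducible counterpart of PSMB5, was 0.338, 0.513, 2.62, 2.99 and 0.425 TPM in the WT embryos and 0.837, 0, 1.96 and 2.76 TPM in the KO embryos. In each genotype some embryos were near or below 1 TPM and others between 1.96 and 2.99 TPM, and the log2 fold change was 0.01 (95% confidence interval −0.98 to 1.00, adjusted p = 0.998 in limma). *PSMB10*, the counterpart of PSMB7, ranged from 1.10 to 6.98 TPM in WT and from 0.544 to 7.57 TPM in KO, with a log2 fold change of 0.17 (95% confidence interval −0.99 to 1.34). Both genes had their lowest value in TE_2, whereas TE_2 had the highest *PSMB9* of the KO embryos. *PSMB10* overlaps *LCAT* in the ARS-UCD2.0 annotation, so its level is less certain.

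Set against the standard subunit that each replaces, the inducible subunits were minor transcripts in all 9 embryos. *PSMB5*, *PSMB6* and *PSMB7* averaged 259 ± 23.5, 581 ± 65.7 and 451 ± 37.2 TPM in WT (SD, n = 5) and 305 ± 73.2, 616 ± 127 and 440 ± 34.4 TPM in KO (SD, n = 4). *PSMB6* was at least 9.79-fold above *PSMB9* in every embryo and *PSMB7* at least 59.7-fold above *PSMB10*. *PSMB5* was at least 78.5-fold above *PSMB8* in the 8 embryos with a *PSMB8* value above 0. As a share of the pair, *PSMB9* made up 6.12 ± 2.21% in WT and 3.62 ± 1.14% in KO, *PSMB8* 0.567 ± 0.568% and 0.445 ± 0.385%, and *PSMB10* 0.817 ± 0.546% and 1.02 ± 0.633%. The shares of *PSMB9* were 3.77, 4.89, 9.26, 7.49 and 5.20% in WT_1 to WT_5 and 2.90, 5.20, 3.69 and 2.69% in TE_1 to TE_4. Unlike the level of *PSMB9*, its share overlapped between the genotypes. The *PSMB6* level of TE_2 was the lowest of the 9 at 445 TPM, and that of WT_1 was 687 TPM. The log2 ratio of *PSMB9* to *PSMB6* differed by −0.75 between KO and WT (exact two-sided permutation test, p = 0.0794), that of *PSMB8* to *PSMB5* by −0.20 (p = 0.746 by the same permutation test) and that of *PSMB10* to *PSMB7* by 0.21 (permutation p = 0.794). Leaving out TE_2, the only KO embryo whose share reached into the WT range, took the difference for *PSMB9* to −0.95. The exact permutation p-value was then 0.0357, the smallest that the remaining embryos allow. Leaving out any other embryo kept the p-value above 0.05.

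**Figure D3:**
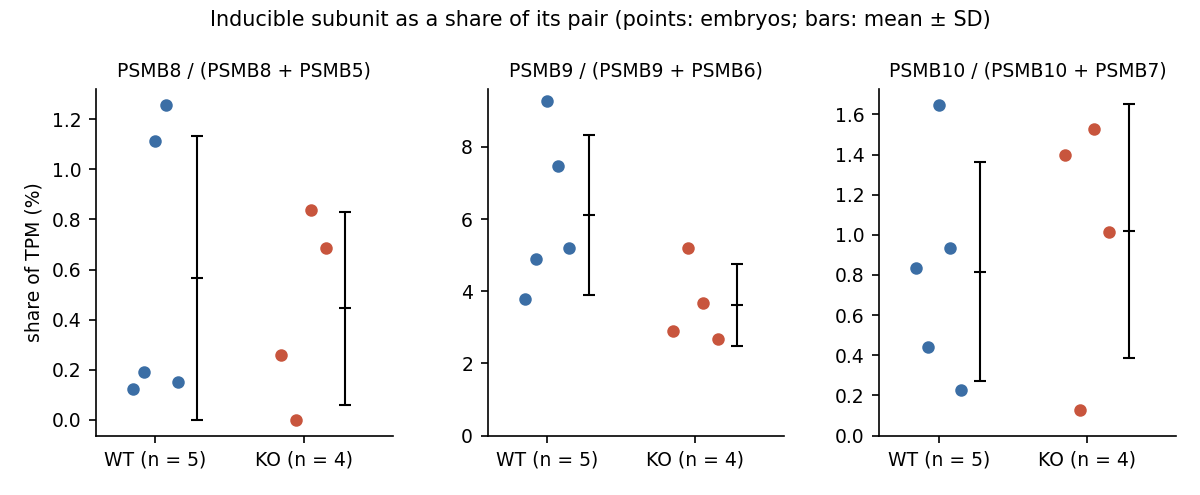
Inducible subunit as a percentage of the sum of the inducible and the standard subunit (TPM), for the pairs PSMB8 and PSMB5, PSMB9 and PSMB6, and PSMB10 and PSMB7, with 1 point per embryo the mean ± SD of 5 WT and 4 KO embryos, and a vertical axis of its own for each pair. The PSMB9 share is the highest of the 3, between 2.69 and 9.26%, and the other shares stay below 2%.

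The rest of the core proteasome was abundant in both genotypes. Of the 11 other core subunits, 3 were lower and 8 higher in KO, and 0 were called by limma, with 0 at an unadjusted p-value under 0.05. Their sum ranged from 5349 to 7181 TPM in WT and from 5900 to 7708 TPM in KO. *PSMB1*, a core subunit without catalytic activity, was 587, 562, 538, 578 and 532 TPM in WT_1 to WT_5 and 683, 589, 628 and 862 TPM in TE_1 to TE_4. The KO values all lay over the highest WT value, by as little as the step from 587 to 589 TPM, and the log2 fold change was 0.29 (SE 0.18, adjusted p = 0.908 in limma). Over all genes tested, 0.801% had every KO embryo above every WT embryo. Of the 5 activator and assembly genes, 1 was lower and 4 were higher in KO, and 0 were called, with 0 at an unadjusted p-value under 0.05. *PSME1*, which encodes a subunit of the interferon-inducible proteasome activator, varied within both genotypes, from 60.5 to 192 TPM in WT and from 47.0 to 215 TPM in KO.

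*TAP1* and *TAP2* encode the subunits of the peptide transporter, and both had lower means in KO without separating the genotypes. *TAP1* was 40.1, 17.2, 22.1, 9.09 and 21.8 TPM in WT_1 to WT_5 and 12.7, 18.8, 13.4 and 8.60 TPM in TE_1 to TE_4. WT_1 stood alone at the top, while WT_4 lay close to the lowest KO embryo, TE_4. The means were 22.1 ± 11.3 TPM in WT (SD, n = 5) and 13.4 ± 4.18 TPM in KO (SD, n = 4), with a log2 fold change of −0.59 (95% confidence interval −1.43 to 0.26, adjusted p = 0.920 in limma). *TAP2* was 9.27, 11.3, 14.8, 6.27 and 11.7 TPM in the WT embryos and 6.54, 11.3, 5.72 and 6.67 TPM in the KO embryos. The KO embryo TE_2 lay level with the WT median, and WT_4 lay among the low KO embryos. The means were 10.7 ± 3.17 and 7.57 ± 2.55 TPM (SD, n = 5 and 4), with a log2 fold change of −0.44 (95% confidence interval −1.15 to 0.27, adjusted p = 0.934 in limma). *TAP1* exceeded *TAP2* in 9 of 9 embryos. Leaving out each embryo in turn kept both differences below 0, from −0.85 without WT_4 to −0.34 without WT_1 for *TAP1*, and from −0.63 without TE_2 to −0.32 without WT_3 for *TAP2*.

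*PSMB8*, *TAP1* and *PSMB9* are direct neighbours in that order in the ARS-UCD2.0 annotation, in the class II region of the MHC, with *TAP2* close by. *PSMB8*, *TAP1* and *PSMB9* peaked in different embryos, WT_4, WT_1 and WT_3, while *TAP2* peaked in WT_3, as *PSMB9* did. *TAP1* was highest in WT_1, which had the lowest *PSMB9* of the WT embryos, and *PSMB8* was high in WT_3, WT_4, TE_3 and TE_4, where *TAP1* was 22.1, 9.09, 13.4 and 8.60 TPM. Between *TAP1* and *PSMB9*, Pearson's r over the 9 embryos was 0.22 (exact permutation p = 0.556). It was 0.55 between *TAP2* and *PSMB9* (exact permutation p = 0.123) and −0.62 between *TAP1* and *PSMB8* (exact permutation p = 0.0749).

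*B2M*, the light chain that every class I heavy chain needs, was the most abundant member and did not differ between the genotypes beyond the spread of the embryos. It was 1468, 703, 715, 533 and 529 TPM in WT_1 to WT_5 and 628, 564, 810 and 1271 TPM in TE_1 to TE_4. Each genotype had 1 embryo that stood above the rest, WT_1 and TE_4, while the other 7 lay between 529 and 810 TPM. The means were 790 ± 389 TPM in WT (SD, n = 5) and 818 ± 319 TPM in KO (SD, n = 4), and the log2 fold change was 0.09 (95% confidence interval −0.64 to 0.82, adjusted p = 0.992 in limma). The sign rested on those embryos, since it was −0.15 without TE_4 and 0.34 without WT_1.

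The 5 genes whose levels followed *B2M* most closely over the 9 embryos, among 11218 genes with a median above 1 TPM, were *MDM2* (Pearson's r = 0.94), *RAB3C* (r = 0.92), *CEP89* (r = 0.92), *ERCC6* (r = 0.91) and *DFFA* (r = 0.91). *MDM2*, which encodes the ubiquitin ligase that degrades p53, was 299 TPM in WT_1 and 150 TPM in TE_4, the embryos high in *B2M*, and between 22.1 and 58.0 TPM in the others. These genes were picked as the highest of many correlations, the 9 points share 2 high embryos, and each library's values share 1 total, so the coefficients are a description.

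The heavy chain symbols in the table were far below their light chain. The symbols *BOLA*, *BOLA-NC1*, *JSP.1* and *BoLA* summed to 60.8, 3.08, 15.5, 9.80 and 10.1 TPM in WT_1 to WT_5 and 20.6, 9.91, 38.1 and 15.3 TPM in TE_1 to TE_4. WT_1, the highest embryo for *B2M*, was also the highest for this sum, and the KO embryos lay within the WT range. *B2M* exceeded the sum by 21.3-fold to 228-fold. The heavy chain symbols *BOLA-A*, *BOLA-NC2*, *BOLA-NC3* and *BOLA-NC4* were not in the table, so the sum leaves them out. Bovine class I genes are near-identical copies that differ between haplotypes, so the level of each symbol, and any allele that the reference lacks, is uncertain. *JSP.1* alone was 24.1 TPM in WT_1 and between 0.292 and 8.67 TPM in the other embryos. *BOLA* was highest in TE_3, at 29.4 TPM, with a log2 fold change of 0.49 between KO and WT, against 0.31 for *BOLA-NC1*, 0.22 for *JSP.1* and −0.47 for *BoLA*, all with overlap. Over the whole list of class I heavy chain and class I-like genes, 10 of 14 symbols were in the table and 7 were tested, 3 lower and 4 higher in KO, with 0 called by limma and 0 at an unadjusted p-value under 0.05.

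*CALR* encodes calreticulin, the lectin chaperone that holds the class I molecule while it is loaded and also folds many other glycoproteins. It was 1000.2, 558, 613, 149 and 640 TPM in WT_1 to WT_5 and 431, 880, 441 and 564 TPM in TE_1 to TE_4. WT_4 lay far below all the others, and the remaining 8 embryos of both genotypes were mixed. The means were 592 ± 303 TPM in WT (SD, n = 5) and 579 ± 210 TPM in KO (SD, n = 4), with a log2 fold change of 0.13 (95% confidence interval −0.87 to 1.14, adjusted p = 0.992 in limma), which became −0.30 without WT_4. The low value of WT_4 was shared by other folding genes of the endoplasmic reticulum. *PDIA3*, the oxidoreductase of the loading complex, *CANX*, a membrane-bound relative of calreticulin, *HSPA5*, the main HSP70 chaperone of this compartment, and *GANAB*, a glucosidase subunit, all had their lowest value in WT_4. WT_1 and TE_2 were among the 3 highest embryos for each of these 5 genes, whose highest value exceeded the lowest by 4.34-fold to 7.91-fold. Of the 6 loading complex and quality control genes in the list, 1 was lower and 5 were higher in KO, with 0 called by limma and 0 at an unadjusted p-value under 0.05.

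**Figure D4:**
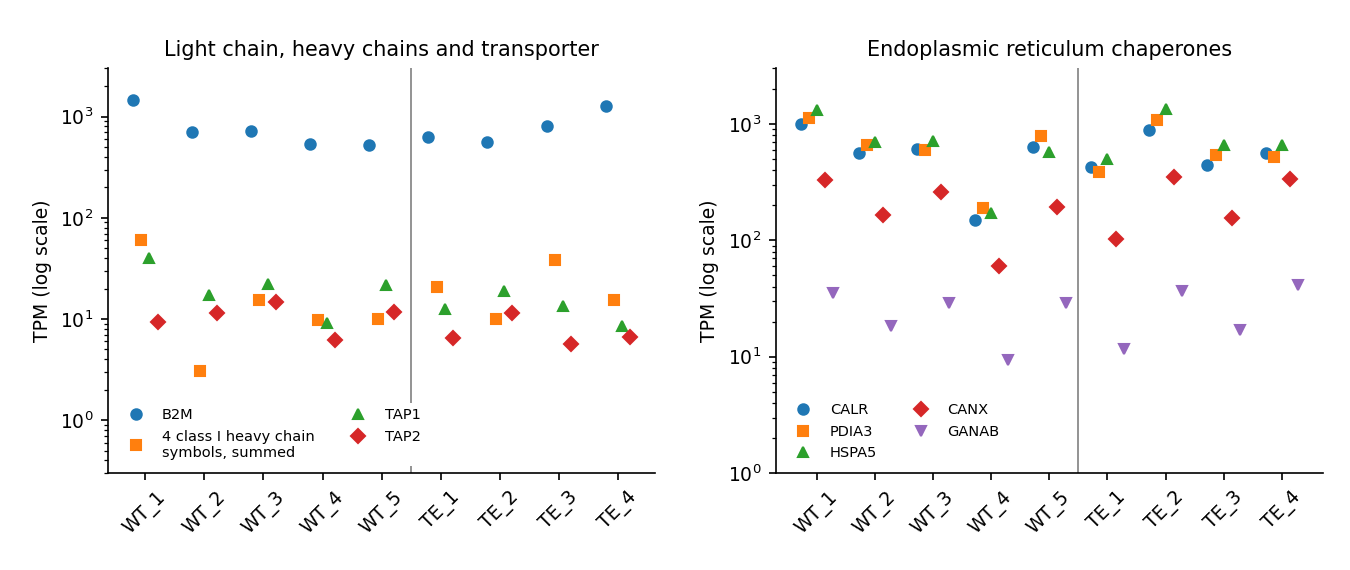
Level in each of the 9 blastocysts, in TPM on a log axis, of *B2M*, the 4 heavy chain symbols summed, *TAP1* and *TAP2* (left), and of *CALR* and 4 other folding genes of the endoplasmic reticulum (right), where a vertical line separates WT from KO embryos. *B2M* lies at least 21.3-fold above the heavy chain sum in every embryo, and all 5 folding genes are lowest in WT_4.

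Tapasin, encoded by *TAPBP*, bridges the transporter and the class I molecule and is dedicated to this pathway. It was 0.304, 0.456, 6.60, 1.64 and 1.40 TPM in WT_1 to WT_5 and 2.82, 1.19, 0.106 and 2.39 TPM in TE_1 to TE_4. The lowest and the highest embryos, TE_3 and WT_3, differed by 62.3-fold, and both genotypes had embryos below 0.5 TPM and above 2 TPM. The log2 fold change was −0.06 (95% confidence interval −1.19 to 1.07, adjusted p = 0.994 in limma), and it was 0.35 without WT_3. *TAPBPL*, the tapasin relative that edits peptides outside the loading complex, ranged from 0.763 to 1.86 TPM in WT and from 0 to 4.35 TPM in KO.

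*ERAP1* trims peptides in the endoplasmic reticulum to the length that fits class I molecules. It was 2.46, 2.85, 4.48, 0.604 and 3.90 TPM in WT_1 to WT_5 and 0, 4.62, 1.47 and 10.1 TPM in TE_1 to TE_4. The KO embryos spanned the whole range, with TE_1 listed at 0 and TE_4 above every other embryo, and the log2 fold change was −0.01 (95% confidence interval −1.37 to 1.34, adjusted p = 0.998 in limma). It moved to 0.59 without TE_1 and to −0.57 without TE_4. *ERAP1* overlaps a long non-coding RNA gene in the ARS-UCD2.0 annotation, so its level is less certain. Among the 6 other peptidases of the pathway, *ERAP2*, the partner of ERAP1, stayed between 0.263 and 1.02 TPM in WT and between 0.263 and 0.686 TPM in KO. *LAP3*, a cytosolic leucine aminopeptidase, was the most abundant, at 195 ± 97.3 TPM in WT (SD, n = 5) and 125.8 ± 45.4 TPM in KO (SD, n = 4), with overlap and a log2 fold change of −0.56 (adjusted p = 0.906 in limma). In all, 4 of the 6 were lower and 2 higher in KO, with 0 called and 0 at an unadjusted p-value under 0.05.

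*NLRC5* was at the bottom of the table and was not tested. Its listed values were 0, 0.0118, 0.290, 0.154 and 0.0679 TPM in the WT embryos WT_1 to WT_5, and 0.102, 0.313, 0 and 0 TPM in the KO embryos TE_1 to TE_4. Both genotypes held embryos listed at 0 and embryos near 0.3 TPM. The DNA-binding factors that NLRC5 works with at class I promoters were present: *RFXANK* ranged from 31.2 to 47.7 TPM in WT and from 34.2 to 45.1 TPM in KO, *RFXAP* from 9.205 to 17.7 TPM and from 6.23 to 30.9 TPM, and *RFX5* from 0.526 to 1.66 TPM and from 0.617 to 3.66 TPM. The NF-Y subunit gene *NFYB* was at 66.1 ± 5.64 TPM in WT (SD, n = 5) and 64.4 ± 21.0 TPM in KO (SD, n = 4). Of the 13 regulators in the list 12 were tested, 9 lower and 3 higher in KO, and 0 were called, with 0 at an unadjusted p-value under 0.05.

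Interferon-inducible genes outside the pathway ranged from listed at 0 to above 10 TPM. Of the 10 in the list, 9 were in the table and 5 were tested, 4 lower and 1 higher in KO, with 0 called by limma and 0 at an unadjusted p-value under 0.05. *ISG15*, a ubiquitin-like protein gene, was listed above 0 only in WT_3, at 0.856 TPM, and WT_4, at 1.01 TPM. *IFI6* was 1.08, 0, 0.918, 3.22 and 1.34 TPM in WT_1 to WT_5 and was listed at 0 in every KO embryo. Neither *ISG15* nor *IFI6* was tested. WT_2 to WT_5 listed more genes of any kind above 0 than every KO embryo, and the part of this in the values at 0 was not tested. *MX1* was 3.11 TPM in TE_3, the highest of the KO embryos, and under 1 TPM in the other KO embryos and in WT_1, WT_2 and WT_5. *USP18*, which encodes a protease that removes ISG15, was the highest of the list in every WT embryo and in TE_3. It was 13.03, 3.54, 14.9, 12.8 and 5.96 TPM in the WT and 6.41, 2.17, 16.6 and 1.85 TPM in the KO embryos. *IRF9* was above it in TE_1, TE_2 and TE_4. *IRF9*, a subunit gene of the interferon-activated factor ISGF3, ranged from 2.03 to 10.9 TPM in WT and from 3.50 to 12.9 TPM in KO. The sum over the list ranged from 6.31 to 34.6 TPM in WT and from 5.90 to 33.5 TPM in KO.

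Co-variation between members from embryo to embryo was not called for any pair. Of the 45 pairs, 27 had a positive Pearson's r over the 9 embryos, the median r was 0.11, and 0 pairs passed after Benjamini-Hochberg adjustment over the 45 (smallest adjusted p = 0.502, exact permutation test). Before adjustment, 3 pairs had a permutation p-value under 0.05 by Pearson's r and 2 by Spearman's rho. *TAP1* and *CALR* gave r = 0.72 (permutation p = 0.0295) and rho = 0.77 (permutation p = 0.0214), and r was 0.88 without WT_1 and TE_4, the embryos farthest from the median of *TAP1*. *CALR* and *PSMB8* gave r = −0.65 (permutation p = 0.0333) and rho = −0.72 (permutation p = 0.0369), and r was −0.51 without WT_1 and WT_4. *PSMB8* and *PSMB10* gave r = 0.72 (permutation p = 0.0335) and rho = 0.55 (permutation p = 0.133), and r was 0.84 without WT_4 and TE_4. The transporter subunits *TAP1* and *TAP2* gave r = 0.65 (permutation p = 0.0579). No embryo was high throughout: WT_1 had the highest *B2M*, *TAP1* and *CALR*, WT_3 the highest *TAP2*, *TAPBP* and *PSMB9*, and TE_4 the highest *ERAP1* with the lowest *TAP1* and *PSMB9*.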

How the data were processed

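RNA-seq was made from individual blastocysts (5 WT, 4 *TEAD4* KO), 1 library each. The deposited values are TPM per gene, made by the authors with kallisto after FastQC and fastp, per the submitters' processing notes. Versions, annotation, build and use of strand are not given in the sources used here, so no coordinates are printed. The labels and the paper's methods describe different library kits and sequencers. TPM keeps no reads per gene, so no counting interval is given. Columns were placed in WT or KO by name, and 0 columns of per-sample values were left unused. No source links a column to a single deposited sample beyond its genotype.

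Genes with a median above 0.1 TPM (14599 of 21512) entered a limma fit (version 3.58.1, R 4.3.3, eBayes with trend) on log2(TPM + 1). P-values were adjusted over all genes tested by Benjamini-Hochberg, and a gene was called where the adjusted value was under 0.05 and the log2 fold change exceeded 1 in size. A fold change on this scale understates that of low genes. Ratios were tested by two-sided exact permutation over embryos and correlations by exact permutation of the 9 embryos, in Python 3.11.15 with scipy 1.17.1. The members and lists were chosen with earlier results of these data known. All 10 members are named, and from the wider lists (72 genes, 64 in the table, 57 tested) any called gene, any gene whose genotypes do not overlap, and the standard subunits, heavy chains and NLRC5 partners set beside a member. The chaperones compared with *CALR*, the symbol *BoLA*, and other genes named for their level were chosen after their values were seen. Nothing in the sources says whether embryos of a genotype came from separate cultures. The p-values between genotypes set the difference in means against the spread between these embryos. All tests take the embryos as independent, which could not be checked. Results were recomputed with 0.1 TPM as pseudocount, without a filter, with a median above 1 TPM, with median-of-ratios or quantile scaling, with limma without trend or with array weights, and leaving out each embryo.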

Additional observations from a re-analysis of the deposited data

How the results depend on the processing

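Over all genes, the 3 calls became 8 with a pseudocount of 0.1 TPM, 8 with a median above 1 TPM, 5 with median-of-ratios scaling, 6 with quantile normalization and 5 without trend, and from 0 (without WT_3, WT_4, TE_1, TE_2 or TE_4) to 10 (without TE_3) when 1 embryo was left out, with 1 without WT_5. No member was called under any alternative, and 0 pairs of members passed for correlation. Members lower in KO numbered between 3 (without WT_3) and 7. *TAP1*, *TAP2* and *PSMB9* kept their direction throughout, *PSMB9* between −0.78 and −0.53 with adjusted p-values from 0.536 to 0.999. The sign of the log2 fold change turned for *TAPBP* with quantile normalization (0.072), for *CALR* with array weights (−0.060) and for *PSMB8* with a pseudocount of 0.1 TPM (−0.26). Leaving out 1 embryo moved it from −0.15 to 0.34 for *B2M*, −0.29 to 0.35 for *TAPBP*, −0.30 to 0.38 for *CALR*, −0.26 to 0.37 for *PSMB8*, −0.11 to 0.71 for *PSMB10* and −0.57 to 0.59 for *ERAP1*. The log2 ratio difference moved from −0.48 to 0.11 for *PSMB8* to *PSMB5*, −0.95 to −0.57 for *PSMB9* to *PSMB6* and −0.064 to 0.73 for *PSMB10* to *PSMB7*. The cause was not tested. *PSMB8* gave no value with a median above 1 TPM. No paired analysis was possible because the embryo numbers are names only and no source describes pairs. TPM keeps no reads per gene, so the precision of values near or below 1 TPM cannot be given.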

Other observations

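Class II genes, whose products present peptides from outside the cell, were also low in these blastocysts. Of 14 symbols in the list, 10 were in the table and 7 were tested, 5 lower and 2 higher in KO, with 0 called by limma and 1 at an unadjusted p-value under 0.05. That gene, *BOLA-DQA5*, a class II alpha chain gene, was 1.23, 0.752, 1.82, 1.30 and 0.855 TPM in WT_1 to WT_5 and 0.651, 0.356, 0.337 and 0.571 TPM in TE_1 to TE_4. The KO values all lay under the lowest WT value, with a log2 fold change of −0.55 (SE 0.20, adjusted p = 0.727 in limma). Over all genes tested, 1.23% had every KO embryo below every WT embryo. A share of 3.83% were lower in KO with an unadjusted p-value under 0.05. So 1 such gene in the list is too few to be read as a result about class II genes. Class II genes are a multigene family with near-identical copies, so this level is uncertain. *CD74*, which encodes the invariant chain that guides class II molecules, was highest in WT_4, at 10.2 TPM, and between 0.208 and 3.08 TPM in the other embryos. *CIITA*, the class II counterpart of NLRC5, was also highest in WT_4, at 3.86 TPM, and between 0.0513 and 1.51 TPM in the others.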
